A study of Mus musculus with 4 samples.

Results

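Clusters of IGF2BP3 eCLIP-seq reads that fell in exons of annotated pseudogenes were examined in mouse testes. A cluster is a stretch of the genome where reads of the immunoprecipitated RNA piled up. A cluster was taken when its centre lay, on the same strand, in an exon of a gene that GENCODE M21 basic (mm10) types as a pseudogene, and in no exon of a protein-coding gene on that strand. This gave 895 of 553,588 clusters, 574 of 337,234 in replicate 1 and 321 of 216,354 in replicate 2. They lay in 380 of the 13,523 annotated pseudogenes (2.81%). The samples came from wild type C57BL/6 mice aged 8 weeks, and the tissue holds germ cells and somatic cells together. Each preparation used 2 testes, whose suspension was crosslinked 3 times with UV at 400 mJ/cm2. Each of the 2 replicates paired 1 library of RNA bound to IGF2BP3 (IP, made with an antibody against the protein) with 1 library of size-matched input RNA (SMInput, kept from 2% of the lysate, with no antibody). Every value below sets an IP beside its own SMInput. The study calls the replicates biological, and the labels do not say whether they came from separate mice.

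Pseudogenes are copies or remnants of genes that have lost the ability to code for the full protein. Processed pseudogenes are retrocopies: a spliced mRNA of a parent gene was reverse transcribed and inserted elsewhere in the genome, so the copy has no introns and can be almost identical to the parent. Unprocessed pseudogenes arose by duplication of genomic DNA, and unitary pseudogenes are genes that decayed without a working copy left in the genome. Testis germ cells transcribe an unusually wide part of the genome, pseudogenes included. IGF2BP3 is a cytoplasmic RNA-binding protein that affects the stability and translation of mRNAs and has been described as a reader of N6-methyladenosine. Short reads from a recent retrocopy and from its parent mRNA can be the same sequence.

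The median log2(fold change) of IP over SMInput was 1.76 for the pseudogene clusters of replicate 1 and 1.5 for all clusters of that replicate. In replicate 2 these medians were 1.85 and 1.53. Other regions had medians as high in replicates 1 and 2: 1.76 and 1.85 in 3′UTRs, and 2.03 and 1.85 in introns of coding genes. In lncRNA exons they were 1.65 and 1.85, and in coding sequence 0.76 and 0.93. The middle 50% of the pseudogene clusters ran from 1.08 to 2.35 in replicate 1 and from 1.11 to 2.85 in replicate 2. A cluster was counted as significant when its log2(fold change) and its −log10(P value) were both at least 2. By that rule 43 pseudogene clusters were significant in replicate 1, or 7.49% (95% Wilson interval 5.61% to 9.94%), where 4.92% of all clusters were. In replicate 2, 47 were significant, or 14.6% (11.2% to 18.9%), where 13.2% of all clusters were. The share in replicate 2 was thus close to the background, and the share in replicate 1 lay above it. For comparison, 19.4% and 34.4% of clusters in 3′UTRs were significant in replicates 1 and 2, 8.95% and 19.6% of those in lncRNA exons, 5.27% and 7.94% of those in coding sequence, and 1.94% and 10.8% of those in introns of coding genes. No test was made of these differences, since clusters are not replicates. The intervals cover counting error only. They take the clusters as independent, although the 574 and 321 lay in 312 and 185 pseudogenes, so they may be too narrow.

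The count depended on the call rule, as did the background. With both thresholds at 3, 8 pseudogene clusters passed in replicate 1 (1.39%, against 1.18% of all clusters) and 6 in replicate 2 (1.87%, against 2.42%). When the fold threshold was lowered to 1 and the P threshold kept at 2, 48 passed in replicate 1 (8.36%, against 7.24%) and 55 in replicate 2 (17.1%, against 18.4%). With a Benjamini-Hochberg adjusted P of at most 0.05 over all clusters of the replicate and the fold threshold kept at 2, 21 passed in replicate 1 (3.66%, against 3.24%) and 32 in replicate 2 (9.97%, against 10.4%). In replicate 2 the share was below that of all clusters under each of these 3 rules.

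The clusters were shallow. The whole read numbers behind the listed values could be worked out for 526 of the 574 clusters in replicate 1 and for 309 of the 321 in replicate 2. Replicate 1 had a median of 4 IP and 2 SMInput reads per cluster, and replicate 2 of 4 and 4. Over all clusters with recovered reads these medians were 4 and 2 in replicate 1, and 4 and 6 in replicate 2. The library totals behind these numbers were 5,133,438 IP and 8,706,391 SMInput reads in replicate 1, and 4,637,612 IP and 16,696,122 SMInput reads in replicate 2. Fewer than 10 reads of both libraries together supported 398 of the clusters in replicate 1 (75.7% of those with known reads) and 179 in replicate 2 (57.9%). Of all 297,854 clusters with recovered reads in replicate 1, 60,182 had 2 to 4 reads and 149,283 had 5 to 9. In replicate 2 these were 17,306 and 73,535 of 198,122. For the significant pseudogene clusters the IP median was 9 reads in replicate 1 (at most 22) and 5 in replicate 2 (at most 28). A single SMInput read stood behind 19 of the 43 and 19 of the 47, and 1 was the lowest SMInput number found, so it may stand for 0 reads as well. The commonest significant pair was 7 IP reads against 1 SMInput read in replicate 1 (10 clusters) and 4 against 1 in replicate 2 (15 clusters). Clusters listed with a −log10(P value) of 0 have no recoverable reads and are left out of the shares by depth that follow. None of them had a log2(fold change) above 0.18. They were 44 of the pseudogene clusters in replicate 1 (7.67%, against 10.6% of all clusters) and 11 in replicate 2 (3.43%, against 7.52%). Among clusters with 5 to 9 reads, 13 of 297 pseudogene clusters in replicate 1 were significant (4.38%, against 1.74% of all clusters with recovered reads of that depth) and 27 of 141 in replicate 2 (19.1%, against 15.3%). Among clusters with 10 to 19 reads, the counts were 22 of 98 (22.4%, against 14.2%) and 18 of 89 (20.2%, against 15.4%). Among those with 20 to 49 reads the counts were 8 of 23 (34.8%, against 15.9%) and 2 of 34 (5.88%, against 15%), so the replicates lay on opposite sides of the background there. Of 7 clusters in each replicate with 50 reads or more, 0 were significant, where 23.1% and 19.1% of all clusters with recovered reads of that depth were. Most of these belong to 1 pseudogene, Gm12260, with 6 of the 7 in replicate 1 and 4 of the 7 in replicate 2.

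How often a pseudogene held a cluster differed by its kind. The shares here and by family below are over all annotated pseudogenes, and any that the cluster caller did not search are counted in the denominators. Processed pseudogenes are the most numerous, and 260 of 9,940 held one (2.62%). Among those annotated as transcribed, the share was higher: 46 of 296 transcribed processed pseudogenes (15.5%), 29 of 253 transcribed unprocessed ones (11.5%) and 6 of 17 transcribed unitary ones (35.3%). Among the 60 typed as pseudogene with no further kind, 10 held one (16.7%). Of 2,642 unprocessed pseudogenes without that annotation, 25 held a cluster (0.946%). Both processed types together held 86% and 76.6% of the significant clusters in replicates 1 and 2, and 70.7% and 62.6% of all pseudogene clusters. For comparison, 7.49% and 14.6% of all pseudogene clusters were significant in replicates 1 and 2, and 4.92% and 13.2% of all clusters. Processed pseudogenes had 29 of 307 clusters significant in replicate 1 (9.45%) and 26 of 142 in replicate 2 (18.3%), with median log2(fold change) values of 2.08 and 2.43. Unprocessed pseudogenes not annotated as transcribed had 0 of 50 and 1 of 19, with medians of 1.35 and 1.85. Transcribed processed pseudogenes had 8 of 99 and 10 of 59, with medians of 1.76 and 1.66. Transcribed unprocessed pseudogenes had 5 of 66 and 6 of 64, with medians of 1.35 and 1.85, and transcribed unitary pseudogenes 0 of 28 and 1 of 25, with medians of 1.25 and 1.61. In whole testis, RNA from many cells and RNA from a few cells that hold much of it cannot be told apart.

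Significant clusters of both replicates overlapped at 6 sites, each in a different pseudogene. They are given here in order of the smaller of their log2(fold change) values. Tubb4b-ps1 is a processed pseudogene of Tubb4b, a β-tubulin that builds microtubules, and matches it at 98.4% of bases. In replicate 1 it held 3 significant clusters side by side on the plus strand: chr5:7179630-7179716 with 16 IP and 2 SMInput reads (3.76), chr5:7179739-7179796 with 15 and 1 (4.67), and chr5:7179797-7179843 with 11 and 1 (4.22). In replicate 2 a single cluster, chr5:7179650-7179841, overlapped all 3, with 11 IP and 4 SMInput reads and a log2(fold change) of 3.31. This was the strongest shared site, and the one that also passed with both thresholds at 3. Tubb4b itself had a significant cluster at the place that matches the later 2 of these in replicate 1, with 90 IP and 29 SMInput reads (2.40), and in replicate 2, with 77 and 68 (2.03). At the place of the first it had 37 and 34 reads (0.88) in replicate 1.

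The second site lay in 4930465K10Rik, a gene typed as a pseudogene with no parent mRNA found, at chr18:77715142-77715229 on the plus strand. It held 19 IP and 5 SMInput reads in replicate 1 and 9 and 5 in replicate 2. Its log2(fold change) was nearly equal in both, at 2.69 and 2.70. No copy of the 50 bases around its centre was found elsewhere within 2 mismatches. Gm9795 aligned along its whole length to the mRNA of Stard6, a lipid-transfer protein of the StAR family, at 100% of bases. Its shared cluster at chr10:56656639-56656677 held 11 IP and 3 SMInput reads in replicate 1 (2.64), and 5 and 2 reads in replicate 2 (3.17). Stard6 had deeper clusters at the matching place, with 36 IP and 28 SMInput reads (1.12) and 52 and 55 reads (1.77), and neither passed the fold threshold. With the adjusted P this site was lost, at 0.0644 in replicate 1, and the other 5 were kept.

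Gm1821 is a transcribed retrocopy of Ubb, a gene that encodes ubiquitin as head-to-tail repeats and that male germ cells need for meiosis. Its cluster held 20 IP and 4 SMInput reads in replicate 1 (chr14:46084279-46084423, log2(fold change) 3.08) and 12 and 7 reads in replicate 2 (chr14:46084314-46084390, 2.63). No cluster lay at the matching place of Ubb in either replicate. Gm11780 is a processed pseudogene of Ptp4a2, a protein tyrosine phosphatase, on the minus strand of chromosome 4. It had the highest −log10(P value) of all 895 clusters, 9.40, in replicate 2, with 28 IP and 18 SMInput reads (2.49). In replicate 1 the overlapping cluster held 22 and 7 reads (2.41), and a neighbouring significant cluster held 20 and 7 (2.28). RefSeq carries Gm11780 as a coding gene. At the matching place Ptp4a2 had clusters of 21 IP and 10 SMInput reads (1.83) and of 18 and 24 reads (1.43), both below the fold threshold. Gm16580 is a retrocopy of Pabpc1, the cytoplasmic poly(A)-binding protein, and lies in an intron of Luc7l, which encodes a splicing factor. Its shared site held 15 IP and 5 SMInput reads in replicate 1 (chr17:26270115-26270172, 2.35) and 8 and 4 in replicate 2 (chr17:26270141-26270182, 2.85). In all, 6 of the 8 clusters of Gm16580 were significant, the most of any pseudogene. Pabpc1 was much deeper at the matching place of the shared site, with 82 IP and 36 SMInput reads (1.95) in replicate 1 and 100 and 76 reads (2.24) in replicate 2.

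The bases under these sites show how close some retrocopies are to their parents. The 30 bases around the centre are given for 4 of the sites from replicate 1, from the reference genome mm10, 5′ to 3′ on the strand of the gene. Capitals mark bases that differ between the pseudogene and its parent. The first 4 lines show the clusters of Tubb4b-ps1 (chr5:7179752-7179781, plus strand, against chr2:25223229-25223258, minus strand) and Gm1821 (chr14:46084336-46084365, plus strand, against chr11:62552584-62552613, plus strand). The next shows Gm16580 (chr17:26270128-26270157, plus strand), whose bases are the same in Pabpc1 (chr15:36597460-36597489, minus strand).
Tubb4b-ps1: ctgcagggcttccagctgacccactccctg
Tubb4b: ctgcagggcttccagctgacccactccctg
Gm1821: ctccgtctgaggggtggcatgcagatcttc
Ubb: ctccgtctgaggggtggcatgcagatcttc
Gm16580: ctgcgcccccgcaagagcagaagcaaatgt
There were 0 differences in each of these 3 pairs. The less similar copy in Gm11780 (chr4:4528388-4528417, minus strand) is shown for contrast, with the matching bases of Ptp4a2, centred on position 129,845,190 of the plus strand of chromosome 4.
Gm11780: tgtGgcTggGCtAggaagggcAccCgtgct
Ptp4a2: tgtTgcAggATtGggaagggcTccTgtgct
Here 7 of 30 bases differ. With positions counted from 1 at the 5′ end and the base of Ptp4a2 named first, they are T4G, A7T, A10G, T11C, G13A, T22A and T25C. A read across this stretch can be told from one of Ptp4a2, whereas a read within the 30 bases of the other 3 cannot be told from its parent. This does not hold for every cluster of a close retrocopy: the 50 bases around the centre of chr5:7179797-7179843 in Tubb4b-ps1 had no copy elsewhere within 2 mismatches.

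Sequence shared with other places was common among the pseudogene clusters. Around the centre of each, 50 bases were searched for in the genome and in spliced transcripts. An exact copy elsewhere was found for 152 clusters in replicate 1 (26.5%) and 71 in replicate 2 (22.1%), and a copy with at most 2 mismatches for 281 (49%) and 127 (39.6%). That copy lay in a coding transcript for 227 and 99 of these. Clusters with such a copy were significant more often by count, 27 of 281 (9.61%) in replicate 1 and 27 of 127 (21.3%) in replicate 2, than those without, 16 of 293 (5.46%) and 20 of 194 (10.3%). Of all clusters 4.92% and 13.2% were, so those without a copy lay near that share in replicate 1 and below it in replicate 2. The median log2(fold change) with a copy was 2.08 against 1.5 without in replicate 1, and 2.26 against 1.85 in replicate 2. In replicate 1 the higher share came from exact copies alone, with 23 of 152 (15.1%). Copies with 1 mismatch had 2 of 87 (2.3%) and those with 2 mismatches 2 of 42 (4.76%), both below the share without a copy. In replicate 2 the counts were 16 of 71 (22.5%) with an exact copy, 8 of 38 (21.1%) with 1 mismatch and 3 of 18 (16.7%) with 2. The clusters with a copy held a single SMInput read more often, in 44.6% against 33.1% in replicate 1 and 21.8% against 16.2% in replicate 2. The part of shared sequence and of SMInput depth in these values was not tested.

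A parent mRNA, aligned over at least 50% of a transcript of the pseudogene at 80% identity or more, was found for 10,005 of the 13,523 pseudogenes (74.0%). Among the clusters, 349 in replicate 1 (60.8%) and 168 in replicate 2 (52.3%) lay in such a pseudogene, and the place that matches the cluster's centre could be found on the parent for 327 and 157. The median identity around the centre was 98.0% in both replicates. The matching place was in the coding sequence of the parent for 304 of 327 clusters (93.0%) and 145 of 157 (92.4%), and in its 3′UTR for 20 (6.12%) and 7 (4.46%). Many annotated pseudogenes are drawn from protein alignments, which reach the coding sequence and leave out the UTRs. Among the clusters matched to coding sequence, 29 (9.54%) and 31 (21.4%) were significant, where 5.27% and 7.94% of all clusters in coding sequence were.

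The parent often had a cluster at the same place. This was so for 199 of the 327 matched clusters in replicate 1 (60.9%) and 88 of 157 in replicate 2 (56.1%). The pseudogene's log2(fold change) was the higher of the pair in 161 of 199 (80.9%) and 72 of 88 (81.8%), with medians of 2.35 against 0.87 for the parent in replicate 1 and 2.43 against 1.35 in replicate 2. The read numbers were far apart: the pseudogene clusters held a median of 4 IP reads, and the parent clusters 19.5 in replicate 1 and 17.5 in replicate 2. The medians for SMInput were 2 reads against 15 in replicate 1, and 2.5 against 24.5 in replicate 2. Among pairs whose pseudogene cluster had at least 10 reads the gap was narrower, 1.61 against 1.05 over 41 pairs and 1.26 against 0.94 over 31. The pseudogene was still the higher in 32 of 41 and 25 of 31. The part of read depth in the gap was not tested further. Both members of the pair were significant in 7 and 8 pairs, the pseudogene alone in 14 and 13, and the parent alone in 14 and 10.

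Some pairs, chosen after their values were seen, show the range. In replicate 1, Gm9762 (3.08, 10 IP and 2 SMInput reads) and its parent Ube2d2a, a ubiquitin-conjugating enzyme (3.05, 39 and 8 reads), had almost the same log2(fold change). So did Gm7327 (2.93, 9 and 2 reads) and Eif4e, the factor that binds the mRNA cap (2.83, 21 and 5 reads). In both cases the parent rested on more reads. Rpl31-ps9 (3.93, 9 and 1 reads) and the ribosomal protein gene Rpl31 (2.24, 50 and 18 reads) were both significant as well. By contrast, the Gapdh retrocopy Gm12033 reached 3.93 (9 and 1 reads) in replicate 1 where Gapdh, a glycolytic enzyme, had 0.58 (15 and 17 reads). The Ppia retrocopy Gm6061 reached 3.76 (8 and 1 reads) where Ppia, a prolyl isomerase that helps proteins fold, had 0.54 (30 and 35 reads).

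Grouped by the role of the parent, most clusters lay outside the families listed below. Pseudogenes of other parents held 299 of the 895, with 31 significant, and those with no parent found held 378, with 24 significant and medians of 1.35 and 1.85. Counts of significant clusters are pooled over both replicates here, and the share over all 895 was 90 (10.1%), against 8.14% of all clusters. The replicates differ in background and the families are split unevenly between them (all 12 clusters of glycolytic genes were in replicate 1), so these counts are description only. Ribosomal protein genes have the most pseudogenes, 1,910, of which 40 (2.09%) held 62 clusters, 7 of them significant. Their median log2(fold change) was 2.08 in replicate 1 and 2.85 in replicate 2. 1700073E17Rik, a transcribed copy of Rpl7 and 1 of 2 pseudogenes tied for the most clusters, held 6, all in replicate 1 with 0 significant. Those at chr6:145387859-145387898 and chr6:145402100-145402118 lay on another of its transcripts, and no matching place on Rpl7 was found for them. Translation factors had a higher share, 16 of 131 pseudogenes (12.2%), with 29 clusters and 5 significant. Within them, Gm13456 is a copy of Eef1a1, which brings aminoacyl-tRNA to the ribosome. It was significant in replicate 1 at chr2:40555935-40556032 (2.03, 12 IP and 5 SMInput reads) and in replicate 2 at another place, chr2:40556301-40556435 (4.02, 9 and 2 reads). Eef1a1 had a significant cluster at the place that matches the second (2.11, 30 and 25 reads). RNA-binding and splicing proteins had 14 of 282 (4.96%), with 35 clusters and 7 significant, 6 of them in the Pabpc1 copy described above.

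Cytoskeletal genes had 9 of 142 pseudogenes with a cluster (6.34%), and 6 of the 17 clusters were significant, 4 of them in Tubb4b-ps1. Gm3608, a copy of the actin-capping gene Capza1, held the most, 5, all in replicate 1 with a median of 2.35 and 0 significant. Ubiquitin and proteasome genes had 8 of 218 (3.67%), with 3 of 10 clusters significant, 2 of which were the Ubb copy. Chaperones had 9 of 169 (5.33%), with 2 of 15 clusters significant, and the Hsp90aa1 copy Gm12346 held 5 of the 15, with medians of 1.57 and 0.21. Glycolytic genes had 6 of 296 (2.03%) and oxidative phosphorylation 5 of 216 (2.31%), with 2 of 12 and 1 of 7 clusters significant. The most clusters in these were 4 in the Gapdh copy Gm6981 (0 significant) and 2 in the Cox7c copy Gm12338 (tied with another), of which 1 was significant in replicate 1 (3.57, 7 and 1 reads). HMG chromatin proteins had 2 of 206 (0.971%), with 2 clusters, 1 of them in the Hmgb2 copy Gm13160, and 0 significant. Genes of sperm development had 9 of 130 (6.92%), with 1 of 13 clusters significant. 1700019M22Rik, a copy of 1700084M14Rik, was 1 of 4 tied there with 2 clusters, at 0.98 and 1.07. Histones had 5 of 88 (5.68%), with 1 of 16. The counts per family are small, and no family was tested against the rest.

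The pseudogenes with the most clusters were mostly of types other than processed. Slco6b1, typed as transcribed unprocessed and named for the organic anion transporters, held 41 clusters along chr1:96906176-96997577 on the minus strand, 19 in replicate 1 and 22 in replicate 2. Its median log2(fold change) was 1.18 in replicate 1, from -0.82 to 3.08, and 1.45 in replicate 2, from -0.06 to 2.59. In replicate 1, 3 were significant, the highest at chr1:96941887-96941970 with 10 IP and 2 SMInput reads (3.08). In replicate 2, 0 were, and the cluster over that place, chr1:96941885-96942028, held 15 and 18 reads (1.59). The pseudogene with the most clusters thus had no site that passed in both replicates by this rule, though it had 2 with the fold threshold at 1. 4932431P20Rik, typed as transcribed unitary, held 29 clusters with medians of 1.35 and 1.85, and 0 were significant. Its IP reads ran from 4 to 10 in replicate 1 and from 3 to 11 in replicate 2. Neither gene had a cluster whose 50 central bases occur elsewhere within 2 mismatches.

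Ppp4r1l-ps, named for a regulatory subunit of protein phosphatase 4, held 16 clusters with medians of 1.08 and 2.04, and 2 were significant in replicate 2, one of them on 4 IP reads and 1 SMInput read (3.85). Stk-ps2 held 12, with medians of 1.35 and 1.43 and 0 significant. Zfp125, named as a zinc finger gene, held 10, of which 9 were in replicate 1 and 7 had a near copy elsewhere, with 0 significant. 5830417I10Rik also held 10, all with a near copy, and 1 was significant, in replicate 2 (2.26, 8 and 6 reads). Gm16270, Gm8093 and 2810025M15Rik tied at 9, with 1, 1 and 0 significant clusters. These were in replicate 2 for Gm16270 (2.26, 8 and 6 reads) and in replicate 1 for Gm8093 (2.26, 17 and 6 reads).

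Over the clusters of both replicates together, though not in replicate 1 alone, the lowest medians among the 5 pseudogenes with at least 5 clusters in each replicate were those of Gm12260, 4930451G09Rik and Slco6b1. In replicate 1 the order was 4930451G09Rik (-0.41), Gm12260 (0.73), Ppp4r1l-ps (1.08) and Slco6b1 (1.18). Gm12260 lies on chromosome 11 in an intron of Trim17, and is 88.3% identical to the histone gene Hist1h3g. RefSeq carries it as the coding gene H3f4, a histone H3 gene. It held 12 clusters with medians of 0.73 and 0.58 and by far the most reads of the set: up to 138 IP and 195 SMInput reads in replicate 1, and 151 and 356 in replicate 2. Its P values were among the lowest although 0 clusters reached the fold threshold. The cluster at chr11:58962132-58962177 had a −log10(P value) of 6.32 with 92 IP and 71 SMInput reads (1.14) in replicate 1, and the one at chr11:58962129-58962174 had 8.22 with 83 and 134 reads (1.16) in replicate 2. 4930451G09Rik, a transcribed unitary pseudogene on chromosome 16, had medians of -0.41 and 1.20, and 3 of its 5 clusters in replicate 1 were listed with a −log10(P value) of 0 and had more SMInput than IP after scaling.

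The highest −log10(P value) figures of replicate 1 were all in Gm12260 (6.32, 6.25 and 5.55), followed by Tubb4b-ps1 at 5.44 and Gm1821 at 5.34. In replicate 2 they were those of Gm11780 (9.40), Gm12260 (8.22) and 6820431F20Rik (8.20). The last is a transcribed unprocessed pseudogene on chromosome 8 related to the cadherin gene Cdh11, at 94.8% identity over 80.6% of 1 pseudogene transcript. Its cluster at chr8:20269278-20269395 had the highest log2(fold change) of the set, 5.66, with 14 IP reads and 1 SMInput read. A copy of its central bases with 1 mismatch was found elsewhere. The only cluster of this gene in replicate 1, chr8:20269282-20269339, overlapped it and was not significant, with 6 IP and 2 SMInput reads (2.35).

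Other annotation overlapped some of the clusters. The centre of 51 clusters in replicate 1 and 33 in replicate 2 lay in a RefSeq coding exon, so the pseudogene label rests on the annotation used. Of these, 5 (9.8%) and 3 (9.09%) were significant, where 4.92% and 13.2% of all clusters were. An intron of a coding gene on the same strand held 133 and 64. Of these, 5 (3.76%) and 10 (15.6%) were significant, where 1.94% and 10.8% of clusters in introns of coding genes were, and intronic reads of the host gene cannot be told apart from those of the pseudogene there. Their median log2(fold change) was 1.61 in replicate 1 and 1.85 in replicate 2, against 1.76 and 1.85 for the rest. Chromosome X held 47 clusters in replicate 1 (8.19%, against 2.02% of all clusters) and 16 in replicate 2 (4.98%, against 1.75%). Of these, 3 (6.38%) and 3 (18.8%) were significant, where 3% and 13.8% of all clusters on that chromosome were. How many annotated pseudogenes lie on chromosome X was not counted, so the share of clusters there does not allow for where pseudogenes are annotated.

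Position, width and base composition are given as description. Along the spliced pseudogene, 32.6%, 33.8% and 33.6% of the clusters of replicate 1 lay in the first, middle and last of 3 equal parts, and 37.1%, 28.7% and 34.3% of those of replicate 2. The median width was 45 and 47 bases, against 42 and 47 for all clusters. Over the 100 bases around each centre, read on its own strand, the median GC content was 48% in both replicates, against 46% and 47%. The motif GAACA was present in 13.9% and 13.4% of the windows, against 9.38% and 8.98% of those of all clusters and 11.3% of those in coding sequence in either replicate. AAACC was present in 8.89% and 6.23%, against 7.67% and 7.24%. GGAC, the core of a common N6-methyladenosine context, was present in 29.6% and 29%, above the 25.3% and 25.6% of all clusters and below the 33% and 32.8% of those in coding sequence. Among significant pseudogene clusters GGAC was present in 6 of 43 windows (14.0%) and 15 of 47 (31.9%), against 26.1% and 24% of all significant clusters. The replicates thus fell on opposite sides of the background. GAACA was present in 16.3% and 10.6% of them, against 8.86% and 8.38% of all significant clusters. For AAACC the shares were 9.3% and 2.13%, against 8.66% and 8.13%. A match to these letters is a description and not a site.

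Between replicates, 102 of the 574 clusters of replicate 1 (17.8%) overlapped a pseudogene cluster of replicate 2 by at least 1 base. Of the 321 in replicate 2, 95 (29.6%) overlapped one of replicate 1. Counted against any cluster of the other replicate, 102 (17.8%) and 97 (30.2%) pseudogene clusters overlapped one. On that count 24.9% and 37.3% of all clusters did, and 27.1% and 39.2% of those in lncRNA exons. In introns of coding genes 7.06% and 13.1% did, in 3′UTRs 44.7% and 52.4%, and in coding sequence 52.5% and 61.6%. Of the 43 and 47 significant clusters, 8 (18.6%) and 6 (12.8%) met a significant one. Of all significant clusters 33% and 18.5% did, and of those in lncRNA exons 48.6% and 33%. In 3′UTRs the shares were 45.7% and 30.3%, in coding sequence 35.8% and 27.5%, and in introns of coding genes 3.95% and 1.36%. Over the 106 overlapping pairs, which share their libraries, Pearson's r of the log2(fold change) was 0.601 and Spearman's rho 0.610. Over the 21 pairs with at least 20 reads in each replicate they were 0.790 and 0.674. In 94 of the 106 pairs both values were above 0. Of all pseudogene clusters, 94.4% in replicate 1 and 96.9% in replicate 2 lay above 0, so this count is no measure of agreement. By gene, 117 of the 380 pseudogenes held clusters in both replicates, and 9 held a significant one in both. Gm7337, chosen after its values were seen, was among these with clusters that did not overlap: chr5:87851918-87851968 in replicate 1 (2.93, 9 and 2 reads) and chr5:87851774-87851890 in replicate 2 (3.26, 8 and 3 reads).

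Marker genes were read as a check of the tissue. Clusters lay in exons of all 6 spermatid markers (59 clusters in replicate 1 and 55 in replicate 2) and all 4 spermatocyte markers (80 and 83). Somatic cells were present too, with clusters in 5 and 4 of 5 Sertoli cell markers, in all 5 Leydig cell markers, in both muscle markers and in all 3 macrophage markers. Red blood cell globins had 3 clusters in replicate 1 and 0 in replicate 2. The data cannot assign any pseudogene cluster to one of these cell types.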

How the data were processed

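IGF2BP3 eCLIP-seq was analysed from the authors' deposited table of each replicate. Per the labels and the study's methods, reads were trimmed with cutadapt, ribosomal RNA reads were removed with Bowtie2, and the rest were aligned to mm10 with STAR, collapsed by unique molecular identifier and clustered with Clipper. The study names the ENCODE protocol for eCLIP, which was not at hand, so how reads that fit several places were treated and which gene set the caller searched were not known here. In the deposited tables the −log10 column gives the authors' P value per cluster for IP against SMInput reads, with 400 as the highest value. A value of 0 stood for every fold change at or below 0 and for some just above it. Fisher's exact test at counts below 5, and otherwise a chi-square with the correction of Yates, gave back the listed figures. The deposited log2 values are the authors' IP over SMInput ratios scaled to library totals. Both are the authors' own comparison and served to describe and count clusters.

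Read numbers are the whole numbers that return both listed values, and a single solution was found for 98.9% and 99.2% of clusters listed between 0 and 400. In a trial on read pairs drawn at random, 0 of those recovered were wrong. Positions were checked against GRCm38, with 0 clusters past a chromosome end. Parents were found with BLAST 2.17.0 among coding transcripts of GENCODE M21, at 80% identity or more over at least 100 bases. The alignment also had to cover at least 50% of the pseudogene transcript that aligned best, a limit chosen after the data were seen. A matching place needed 50 aligned bases around the centre, and a parent cluster had to lie within 25 bases of it. Overlaps with all clusters used bedtools 2.31.1, and other steps Python 3.11.15 with pandas 2.3.3 and scipy 1.17.1. The members and lists were chosen with earlier results of these data known. Named pseudogenes were those with an overlapping significant cluster in both replicates, the 10 with the most clusters (ties by significant clusters, and the 1 gene tied with the last is named too), those of the 3 highest −log10 values per replicate, the 3 lowest medians over both replicates among those with at least 5 clusters in each replicate, the one with the most clusters per parent family, and their parents; others are named as chosen later. The sequence of the site on chromosome 18 and that of Gm9795 are not shown. With 2 replicates no test across replicates was made. Alternatives covered thresholds, overlap, membership, depth, shared sequence, parent identity and each replicate alone.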

Additional observations from a re-analysis of the deposited data

How the results depend on the processing

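Over 36 alternatives to 7 results, 16 were counted as moving the value, 20 as leaving it and 0 as reversing it. This tally follows no single tolerance: a fall from 47 to 32 significant clusters is among the 20. A fall from 32.1% to 28.9%, given below, is among the 16. For significant clusters, 43 in replicate 1 and 47 in replicate 2, thresholds of 3 left 8 and 6, and the adjusted P left 21 and 32. Among alternatives chosen after seeing the data, leaving out clusters with a near copy of their 50 bases left 16 and 20, and leaving out those with 1 SMInput read left 24 and 28. These settings keep fewer clusters by construction. The pooled share of significant clusters was 10.1%, and 7.49% to 14.6% with either replicate left out. The median log2(fold change) of replicate 1, 1.76, was 1.96 over clusters with a −log10(P value) above 0, 1.42 over those with at least 10 reads and 1.5 without near copies (added after seeing the data). That of replicate 2, 1.85, was 1.16 over clusters with at least 10 reads. The sites significant in both replicates, 6, were 1 at thresholds of 3 and 10 at a log2(fold change) of at least 1, which adds 2 sites in Slco6b1, 1 in Gm12260 and 1 in Gm16580. Over all pseudogene clusters of both replicates, with or without a parent, 32.1% had a parent cluster at the matching place, and 28.9% at 90% identity. The 60.9% and 56.1% given above are over matched clusters alone. Leaving out clusters in introns of coding genes, or in RefSeq coding exons, left 38 and 37, and 38 and 44 (the latter chosen after seeing the data). Where a value moved for reasons other than the clusters kept, the cause was not tested. No paired analysis of the recovered reads was made. Each deposited value is already an IP set against its paired SMInput, and no result here comes from a test across replicates. Depth limits these values, with a median of 4 IP reads per cluster in either replicate.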
